A study of Mus musculus with 24 samples.

Results

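Serpins are protease inhibitors, and 6 Serpin genes of T cells were followed in single NK1.1+CD3e+ cells of the mouse liver: Serpina3f, Serpina3g, Serpinb1a, Serpinb6a, Serpinb6b and Serpinb9. They were chosen by name from the 24447 genes of the count matrix, and in part because Serpina3f had already stood out in CD1d-dependent cells of the same data, so its levels by genotype are given as a description. All 6 had counts and none was left out. They held 57463 unique molecular identifiers (UMIs, one tag per captured transcript), which was 97.7% of all UMIs of the 64 Serpin rows. Of the other 58 Serpin rows, 33 had no UMI, 22 had between 1 and 99, and only Serpini1, Serpinc1 and Serpina1c reached 100 or more, with 531, 104 and 100 UMIs; these 3 were singled out after their values were seen.

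The cells came from livers of young adult C57BL/6 mice of 3 genotypes. WT mice carried neither deletion. Mice without Jα18 lack the T cell receptor segment that type I NKT cells need, and mice without CD1d lack the antigen-presenting molecule on which NKT cells of both types depend. No treatment is named in the labels. The strain of Jα18-deficient mice is known for a T cell receptor repertoire narrowed beyond the loss of type I cells, the second CD1d gene was not deleted in CD1d-deficient mice, and NK1.1-negative cells were left out by the sort. The labels list 8 libraries per genotype, but a cell is named only by its genotype and a number, so each genotype is 1 pool of cells, no test was made between genotypes, and the number of mice behind a pool is not given.

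Serpins trap a protease by offering it a loop that it cleaves, after which both proteins stay locked together. Killer lymphocytes keep granzymes and cathepsins in granules, and intracellular serpins of the same cells are known to inactivate enzyme that leaks into the cytosol. Serpinb9 is the inhibitor of granzyme B, and Serpinb6b is an inhibitor of granzyme A. Serpina3g, also known as Spi2A, inhibits lysosomal cathepsins in activated and memory T cells, and Serpina3f is its close neighbour in the same gene cluster. Serpinb1a inhibits neutrophil serine proteases such as elastase, and Serpinb6a is an inhibitor of cathepsin G.

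The genes lie in a pair of clusters on the NCBIM37 (mm9) build, the build the reads were aligned to, and all 6 are annotated as protein-coding. Serpina3f spans chr12:105452754-105459339 and Serpina3g chr12:105474455-105480149, both on the plus strand and 15.1 kb apart. On chromosome 13, Serpinb1a spans chr13:32933961-32943054 on the minus strand, Serpinb6b chr13:33057182-33070936 and Serpinb9 chr13:33095119-33109826 on the plus strand, and Serpinb6a chr13:34009787-34094663 on the minus strand. Serpinb6b and Serpinb9 are 24.2 kb apart.

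Because Serpina3f and Serpina3g had the highest correlation across cells of any pair of members in every pool, their sequences upstream of the start are shown. They are RefSeq promoter sequences that matched NCBIM37 exactly at chr12:105452573-105452701 for Serpina3f and chr12:105474264-105474356 for Serpina3g, both on the plus strand and both outside the transcribed part. Capitals mark the letters TTCNNNGAA, the form of a gamma-activated site, to which STAT proteins are known to bind.
Serpina3f: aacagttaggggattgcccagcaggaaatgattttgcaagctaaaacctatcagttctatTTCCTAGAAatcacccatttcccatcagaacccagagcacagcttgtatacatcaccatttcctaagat
Serpina3g: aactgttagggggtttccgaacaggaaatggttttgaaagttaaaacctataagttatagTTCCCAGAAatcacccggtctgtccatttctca
Over 93 aligned bases, 83.9% were identical between both stretches. The motif reads the same on both strands. It lay within 8.30% of all 32851 RefSeq promoter windows of 300 bases. Among the members, 5 of 6 had promoter windows in the RefSeq table, Serpinb1a not being among them. One of the Serpinb6a windows held TTCNNNGAA upstream of the start, where it overlapped an interferon-stimulated response element (ISRE), and a further TTCNNNGAA lay past the start. The ISRE was searched on both strands and was within 3.44% of all windows. The Serpinb9 window held it, and the windows of Serpina3f, Serpina3g and Serpinb6b did not. An NF-kB motif, searched on both strands, was within 0.155% of all windows and within none of the members' windows. A match is a description of letters and not a bound site.

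Where they align, the coding sequences of Serpina3f and Serpina3g are near copies, with 89.0% of 744 aligned bases identical. This bears on how reads can be told apart. The annotated coding sequences used were 1338 bases long for Serpina3f and 747 for Serpina3g, so part of Serpina3f was not aligned. The 120 coding bases in which they differed most are shown from the annotated transcripts, with the 21 differing bases in capitals.
Serpina3f: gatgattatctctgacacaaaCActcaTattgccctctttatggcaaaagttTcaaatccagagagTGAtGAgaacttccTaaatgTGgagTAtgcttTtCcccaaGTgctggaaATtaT
Serpina3g: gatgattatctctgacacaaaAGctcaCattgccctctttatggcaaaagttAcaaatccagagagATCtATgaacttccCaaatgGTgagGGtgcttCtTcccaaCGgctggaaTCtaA
The longest run of identical bases between their transcripts was 119. Of the 2350 different stretches of 100 bases in Serpina3g transcripts, 20 (0.851%) also occurred in Serpina3f. The coding sequences of Serpinb6a and Serpinb6b were 87.2% identical, with a longest shared run of 57 bases and no shared stretch of 100 bases. How reads that match several genes were counted is not given in the sources used here, so the split between Serpina3f and Serpina3g is uncertain to that extent.

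The pools differed in depth. There were 623 WT cells with 34102694 UMIs, 725 Jα18-deficient cells with 60484252 and 387 CD1d-deficient cells with 14536585, and the median per cell was 40467, 46670 and 13508 UMIs. To compare shares of cells at one depth, cells were thinned to 10000 UMIs, which kept 523, 632 and 227 cells. The sort markers Cd3e and Klrb1c (NK1.1) were present in every pool, at 196 to 352 and 723 to 956 CPM (the UMIs of a gene summed over a pool, scaled to the same total in every pool), and Cd1d1 had no UMI in the CD1d-deficient pool against 25.0 CPM in WT and 15.4 CPM in Jα18-deficient cells. Hepatocyte, neutrophil, B cell and endothelial marker lists each summed to 21.0 CPM or less in all pools. The 5 neutrophil markers had 0 CPM in WT and at most 1.01 CPM elsewhere. The 7 myeloid markers summed to 87.2, 23.8 and 615 CPM in WT, Jα18-deficient and CD1d-deficient cells, of which Lyz2 made 77.3, 14.7 and 588 CPM, and Lyz2 was found in 91.6% of thinned CD1d-deficient cells. The other myeloid markers reached at most 13.3 CPM. The 3 NK cell markers summed to 37.0, 144 and 287 CPM. The part of these differences in the Serpin levels was not tested. Intervals below are 95% exact Poisson intervals for CPM and 95% exact Clopper-Pearson intervals for shares of cells. They cover counting error only.

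Serpina3f was the member that differed most between the pools. It stood at 158 CPM in WT (154 to 162), 25.3 CPM in Jα18-deficient cells (24.1 to 26.6) and 41.3 CPM in CD1d-deficient cells (38.1 to 44.8). WT was thus 6.23-fold above Jα18-deficient cells and 3.82-fold above CD1d-deficient cells, without a test. In thinned cells, the share with a Serpina3f UMI was 34.0% in WT (30.0 to 38.3), against 12.5% among Jα18-deficient cells (10.02 to 15.3) and 15.9% among CD1d-deficient cells (11.4 to 21.3). The intervals of the mutant pools overlapped in these shares, and WT stood apart from both.

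Serpina3g did not follow Serpina3f across the pools. It stood at 304 CPM in WT (298 to 309), 156 CPM in Jα18-deficient cells (153 to 160) and 289 CPM in CD1d-deficient cells (281 to 298). The share of thinned cells with Serpina3g was 49.7% in WT (45.3 to 54.1), 29.4% among Jα18-deficient cells (25.9 to 33.2) and 45.4% among CD1d-deficient cells (38.8 to 52.1), so that only the Jα18-deficient pool was apart. There were 0.521 Serpina3f UMIs per Serpina3g UMI in WT, 0.162 in Jα18-deficient and 0.143 in CD1d-deficient cells.

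The granzyme inhibitors varied less than Serpina3f. The widest log2 ratio between pools was -0.51 for Serpinb9 and 0.94 for Serpinb6b, the latter close in size to that of Serpina3g (-0.96). Serpinb9 stood at 117 CPM in WT (113 to 120), 81.9 CPM in Jα18-deficient cells (79.6 to 84.2) and 97.5 CPM in CD1d-deficient cells (92.5 to 103). Its share of thinned cells was 27.0%, 24.8% and 22.9%, with overlapping intervals (23.2 to 31.0, 21.5 to 28.4 and 17.6 to 28.9). Serpinb6b stood at 105 CPM in WT (102 to 109), 96.4 CPM in Jα18-deficient cells (93.9 to 98.9) and 185 CPM in CD1d-deficient cells (178 to 192). Its share of thinned cells was 26.8% in WT, 26.7% among Jα18-deficient cells and 40.5% among CD1d-deficient cells (34.1 to 47.2), where the last interval lay above the other two (23.0 to 30.8 and 23.3 to 30.4). The CD1d-deficient pool was also the pool with the most Lyz2.

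The inhibitors of neutrophil-type proteases were rare. Serpinb6a stood at 14.5 CPM in WT, 27.3 CPM in Jα18-deficient and 23.4 CPM in CD1d-deficient cells, and was found in 4.40% (2.81 to 6.53), 8.39% (6.34 to 10.8) and 8.37% (5.11 to 12.8) of thinned cells. Serpinb1a stood at 5.13, 12.4 and 3.58 CPM, and was found in 2.10% (1.05 to 3.73), 3.16% (1.94 to 4.85) and 3.52% (1.53 to 6.83) of thinned cells. The Serpinb1a shares thus did not differ beyond counting error, although its CPM did.

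The CPM of a member rested on few cells. The 10 cells with most UMIs of a gene held 95.4%, 88.4% and 78.8% of all Serpinb1a UMIs in WT, Jα18-deficient and CD1d-deficient cells, and for Serpinb6a they held 69.6%, 61.2% and 83.8%. For Serpina3f they held 38.1%, 55.8% and 68.4%, and 1 cell alone had 372 of 1533 UMIs in Jα18-deficient and 201 of 601 in CD1d-deficient cells. In CD1d-deficient cells the 10 cells held 66.2% of Serpinb6b UMIs, and 1 cell alone had 500 of 2683. The least concentrated values were 22.5% for Serpina3g and 27.0% for Serpinb6b in WT. A pool's CPM can therefore move with a handful of cells, which the Poisson interval does not cover.

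**Figure D1:**
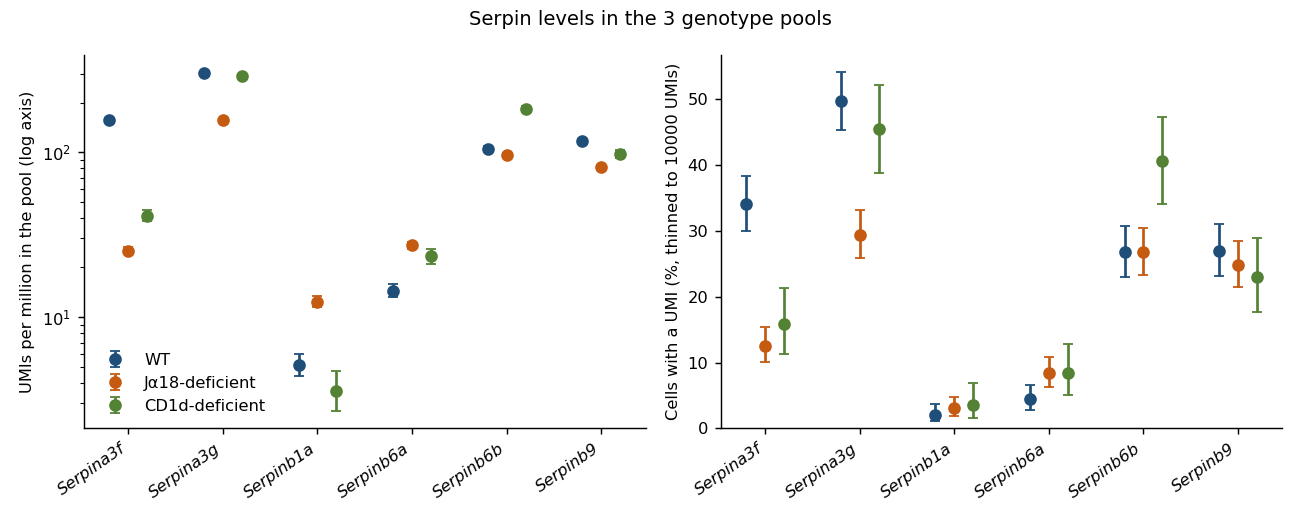
Levels of the 6 Serpin genes in the WT, Jα18-deficient and CD1d-deficient pools. The left panel plots CPM on a log axis with exact 95% Poisson intervals, and the right panel the percentage of cells with a UMI after thinning to 10000 UMIs, with 95% Clopper-Pearson intervals; each point is 1 pool. Serpina3f is highest in WT in both panels (158 CPM and 34.0% of cells), while the Serpinb9 shares overlap (22.9% to 27.0%).

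Set against all genes, few members passed a log2 ratio of CPM of 1 between pools. Between CD1d-deficient and WT cells, Serpina3f was past it on the lower side (log2 ratio -1.93), beside 12.3% of the 9447 genes with at least 100 UMIs in that pair. No member passed on the higher side, where 12.2% of genes did (24.5% on either side). Between Jα18-deficient and WT cells, Serpina3f was lower (log2 ratio -2.64; 7.14% of 10267 genes were lower) and Serpinb1a higher (1.27; 14.0% of genes were higher, 21.2% either way), while Serpina3g stood at -0.96, and at -1.07 with TMM factors and -1.04 as a mean over cells, past the threshold. Between CD1d-deficient and Jα18-deficient cells, Serpinb1a was lower (-1.80; 17.8% of 10042 genes were lower) and no member was higher, beside 9.58% of genes (27.3% either way). The median log2 ratio over the 6 members was -0.16, -0.32 and 0.48 in these pairs, against 0.0052, 0.13 and -0.13 over all genes counted. The pairs share pools, the members were chosen in part on this contrast, and nothing is read from these counts.

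The proteases that serpins act on took other values. Of 11 granzyme and perforin genes, 5 had at least 100 UMIs in each pair, and 4 of them were past a log2 ratio of 1 on the higher side in CD1d-deficient over WT cells, with a median of 1.94. Gzmb stood at 718, 943 and 2751 CPM and Gzma at 581, 1295 and 3309 CPM in WT, Jα18-deficient and CD1d-deficient cells. Prf1, the perforin gene, stood at 39.6, 42.6 and 102 CPM. Of 13 cathepsin genes, 11 were counted, of which 2 were higher and 1 lower in CD1d-deficient over WT cells (median 0.48), and of 7 cystatin genes, which encode cathepsin inhibitors, 3 were counted and 1 was higher (median 0.12). None of the 3 neutrophil serine protease genes (Elane, Prtn3 and Ctsg) reached 100 UMIs in any pair.

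Within a pool, cells were split by surface receptor genes after thinning: cells with a Cd8a UMI, then cells with a UMI of any Ly49 (Klra) gene and no Cd8a, and the remaining cells. These gates held 49, 115 and 356 WT cells, 127, 342 and 156 Jα18-deficient cells, and 105, 90 and 31 CD1d-deficient cells. The gates lie close to the contrast used to choose Serpina3f and are described without a test.

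In CPM, Serpina3f was higher in the remaining cells than in Cd8a cells of every pool. The CPM was 184 against 54.9 in WT, 27.5 against 18.5 in Jα18-deficient cells and 41.5 against 16.7 in CD1d-deficient cells. Serpina3f was the only member with one direction on that side in all 3 pools. In Ly49 cells its CPM was 111 in WT, 26.9 in Jα18-deficient and 61.9 in CD1d-deficient cells. The last value was above the remaining cells of that pool in Poisson intervals (55.3 to 69.1 against 33.7 to 50.5). However, these Ly49 cells held 318 Serpina3f UMIs, and the single cell with 201 UMIs lies among them. In shares of thinned cells they stood at 13.3% (7.08 to 22.1) against 16.1% (5.45 to 33.7) of remaining cells. The CPM and the share thus disagreed. In shares of thinned cells, WT remaining cells (36.0%; 31.0 to 41.2) and WT Ly49 cells (34.8%; 26.1 to 44.2) had overlapping intervals, and WT Cd8a cells stood at 20.4% (10.2 to 34.3). The WT share was above the Jα18-deficient share also within the remaining cells (17.3%; 11.7 to 24.2) and within Ly49 cells (10.8%; 7.73 to 14.6), whereas in Cd8a cells the intervals of all 3 pools overlapped. The intervals of both gates overlapped in the mutant pools, at 17.3% of remaining against 11.8% of Cd8a cells in Jα18-deficient and 16.1% against 18.1% in CD1d-deficient mice.

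Serpina3g had the opposite lean in the mutant pools. It stood at 197 CPM in Cd8a cells against 102 CPM in remaining cells of Jα18-deficient mice, and at 412 against 149 CPM in CD1d-deficient mice, but at 332 against 318 CPM in WT. In shares, the values were 40.9% (32.3 to 50.02) against 25.0% (18.4 to 32.6) in Jα18-deficient cells and 50.5% (40.5 to 60.4) against 22.6% (9.59 to 41.1) in CD1d-deficient cells. The first of these pairs of intervals overlapped only at the edge, and the second by little.

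Serpinb6b was at 336 CPM in CD1d-deficient Cd8a cells against 101 CPM in the remaining cells of that pool, but its shares of thinned cells were 46.7% (36.9 to 56.7) and 48.4% (30.2 to 66.9). The CPM and the share thus disagreed. The single cell with 500 UMIs lies among the Cd8a cells of that pool, which held 2051 Serpinb6b UMIs. Serpinb9 was found in 19.4% to 30.6% of thinned cells in these gates, with overlapping intervals. In CPM it was lower in remaining than in Cd8a cells of every pool, with Poisson intervals apart. The values were 105 against 153 in WT, 80.7 against 93.0 in Jα18-deficient and 47.0 against 83.3 in CD1d-deficient cells. Serpinb6a reached 14.3% (8.22 to 22.5) of CD1d-deficient Cd8a cells, and 0 of the 31 remaining cells of that pool had a UMI after thinning, with a Clopper-Pearson upper limit of 11.2% for detection at that depth. Before thinning these 31 cells held 1 Serpinb6a UMI, and the log2 ratio of CPM of remaining over Cd8a cells in that pool was -5.99, against -0.80 when a gate needed 2 UMIs.

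**Figure D2:**
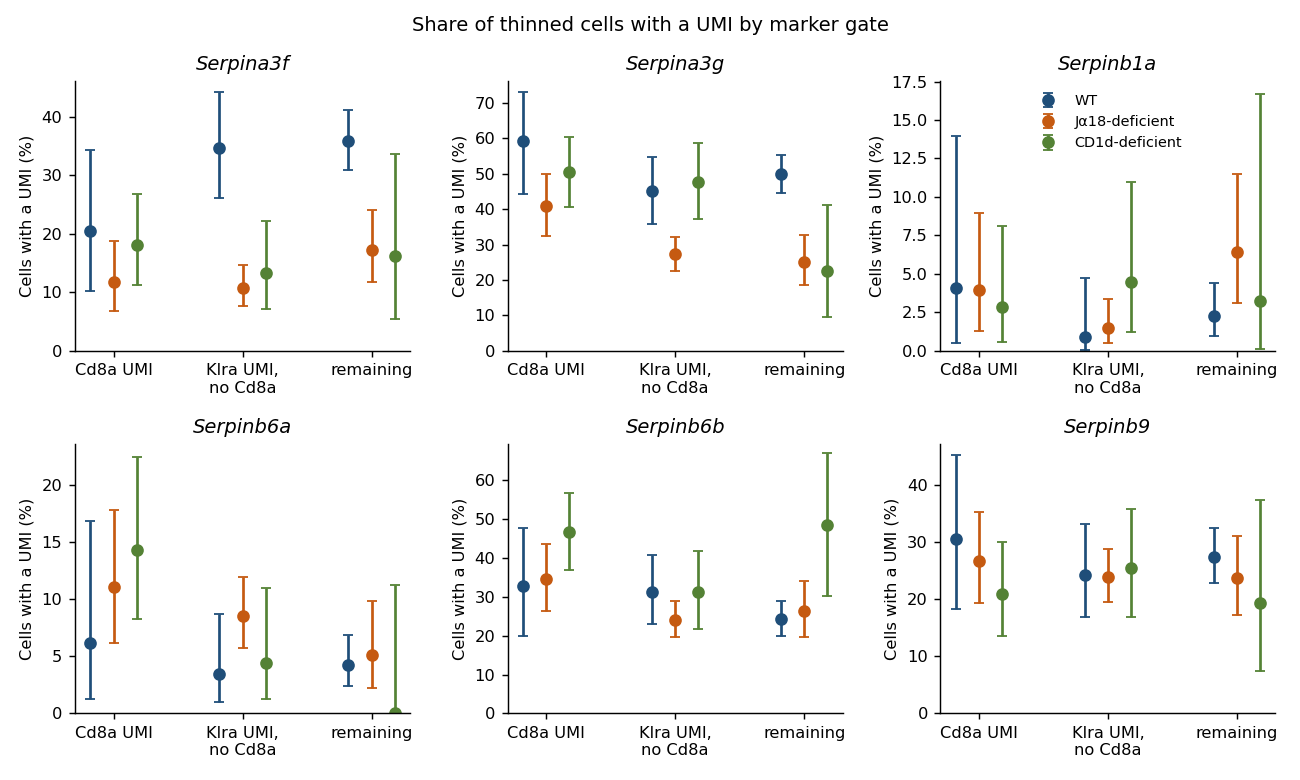
Percentage of thinned cells with a UMI of each Serpin gene (y axis) in cells with a Cd8a UMI, cells with a Klra UMI and no Cd8a, and the remaining cells (x axis), for the 3 pools, with 95% Clopper-Pearson intervals. Serpina3f is at 36.0% of remaining WT cells against 17.3% of remaining Jα18-deficient cells, and the wide bars of the remaining CD1d-deficient cells come from 31 cells.

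Serpina3g was found more often in cells with Serpina3f than in cells without it. Among thinned WT cells with Serpina3f, 118 of 178 (66.3%; 58.8 to 73.2) also had Serpina3g, against 41.2% (35.9 to 46.6) of cells without Serpina3f. In Jα18-deficient cells it was 46 of 79 (58.2%; 46.6 to 69.2) against 25.3% (21.7 to 29.2), and in CD1d-deficient cells 27 of 36 (75%; 57.8 to 87.9) against 39.8% (32.8 to 47.1). The intervals did not overlap in any pool. Most thinned cells with Serpina3g had no Serpina3f, at 142 of 260 in WT, 140 of 186 in Jα18-deficient and 76 of 103 in CD1d-deficient cells. Pearson's r of log2(UMIs per 10000 + 1) across cells was 0.316, 0.304 and 0.277 over 523, 632 and 227 cells, which share the libraries of their pool and were brought to one depth.

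Inside the gates, the r of the pair was 0.315, 0.430 and 0.301 in Cd8a, Ly49 and remaining cells of WT, 0.320, 0.253 and 0.427 in Jα18-deficient cells, and 0.314, 0.294 and 0.247 in CD1d-deficient cells, the last over only 31 cells. The share of cells with Serpina3g was higher in cells with Serpina3f than without in every one of these gates. The intervals were apart in remaining WT cells (57.5 to 74.5% against 34.3 to 47.5%), in Ly49 and remaining cells of Jα18-deficient mice and in Cd8a cells of CD1d-deficient mice, and overlapped in the others, as in WT Ly49 cells (45.8 to 77.3% against 25.2 to 47.9%). Serpina3f and Serpina3g were each other's most alike gene out of 3665 genes with a UMI in at least 10% of thinned cells of every pool, with a mean r of 0.299. The r of the other pairs of members ran from -0.0973 to 0.0914 in WT, from -0.0563 to 0.0903 in Jα18-deficient and from -0.0692 to 0.170 in CD1d-deficient cells. The highest of these in CD1d-deficient cells were Serpina3f with Serpinb1a (0.170), Serpinb1a with Serpinb9 (0.168) and Serpina3f with Serpinb9 (0.144), where 3, 2 and 12 cells had both genes.

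Cells with many UMIs of one gene show how far both were counted apart. Of WT cells with at least 20 Serpina3g UMIs before thinning, 21 of 122 (17.2%) had no Serpina3f UMI, as had 20 of 88 (22.7%) in Jα18-deficient and 8 of 48 (16.7%) in CD1d-deficient cells. In the other direction, 3 of 61 WT cells with at least 20 Serpina3f UMIs had no Serpina3g, as had 2 of 15 and 2 of 5 in the mutant pools. The number of Serpina3f UMIs per Serpina3g UMI also differed between pools, as given above. The share of UMIs that came from the other gene was not tested.

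**Figure D3:**
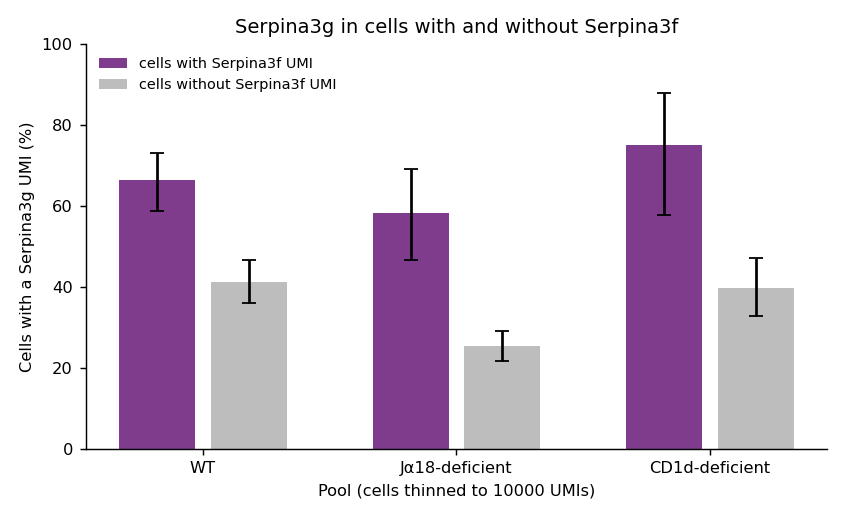
Percentage of thinned cells with a Serpina3g UMI (y axis) among cells with and without a Serpina3f UMI, in each pool (x axis), with 95% Clopper-Pearson intervals. The bars of cells with Serpina3f stand at 66.3%, 58.2% and 75%, each above the bar of cells without it.

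Beyond each other, Serpina3f was most like Ly6a (mean r 0.180), which encodes Sca-1, and Ly6e (0.143), and Serpina3g was most like Ccl5 (0.166), a chemokine of cytotoxic cells, and B2m (0.156), the light chain of MHC class I. For Serpinb6b the most alike genes were Ctsd (0.145), Prf1 (0.138) and Runx3 (0.129), with r for Prf1 of 0.0338, 0.0612 and 0.318 in WT, Jα18-deficient and CD1d-deficient cells. For Serpinb9 they were Mgat2 (0.114), Qrich1 (0.0970) and Entpd4 (0.0967), for Serpinb6a Uba7 (0.119), Tyrobp (0.104) and Ggct (0.103), and for Serpinb1a Ly6g5b (0.158), Tmem176b (0.155) and Igflr1 (0.134). Likeness was the mean over the 3 pools of r across thinned cells. The Serpinb1a values were highest in CD1d-deficient cells (0.362, 0.303 and 0.248), where 8 thinned cells had Serpinb1a. They were 0.0704, 0.183 and 0.123 in Jα18-deficient cells and 0.0428, -0.0214 and 0.0309 in WT. All of these mean correlations were weak, the Serpina3f and Serpina3g pair being the highest (0.299), and the counts of the members were sparse. In CD1d-deficient cells alone, Serpinb1a with Ly6g5b (0.362) and Tmem176b (0.303), and Serpinb6b with Prf1 (0.318), were above that pair (0.277).

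The share of cells with Serpinb9 had overlapping intervals at all levels of Gzmb. Serpinb9, the inhibitor of granzyme B, was found in 27.5% (22.7 to 32.7), 27.7% (18.4 to 38.6), 24.3% (14.8 to 36.0) and 26.0% (14.6 to 40.3) of WT cells with 0, 1 to 4, 5 to 19 and 20 or more Gzmb UMIs per 10000. In Jα18-deficient cells the shares were 22.0%, 23.4%, 30.2% and 25.0%, and in CD1d-deficient cells 18.6%, 24.0%, 20.8% and 25.2%. Over single cells, the r of Serpinb9 with Gzmb was 0.000498, 0.0178 and 0.0540 in the 3 pools.

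Serpinb6b, an inhibitor of granzyme A, was set against Gzma by the same steps. It was found in 26.9% (22.4 to 31.8), 21.4% (14.3 to 29.9), 27.3% (6.02 to 61.0) and 45.2% (27.3 to 64.0) of WT cells with 0, 1 to 4, 5 to 19 and 20 or more Gzma UMIs per 10000, the last from 31 cells. In Jα18-deficient cells the shares were 25.7%, 23.9%, 38.6% and 32.9%, and in CD1d-deficient cells 37.7%, 32.9%, 54.5% and 47.1%. In each pool the share was lower at 1 to 4 UMIs than at 0 and higher at 20 or more, with intervals that overlapped. The r across cells was 0.0543, 0.0511 and 0.0851.

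The largest difference in detection by Gzmb in any pool was that of Serpina3g in CD1d-deficient cells. It was found there in 50% of 184 cells with Gzmb and 25.6% of 43 cells without, a difference of 24.4 percentage points with intervals that did not overlap, while the differences in WT and Jα18-deficient cells were 2.48 and 7.33 percentage points. In WT the largest difference was that of Serpinb6b, at 9.39 percentage points. There were 36 such comparisons of a member between cells with and without Gzmb or Gzma in a pool. Only that of Serpina3g by Gzmb in CD1d-deficient cells had intervals apart. The r of Serpina3g with Gzmb was -0.0343, 0.0866 and 0.146. Over all members and pools, 18 values of r with Gzmb ran from -0.0837 to 0.146 and 18 with Gzma from -0.0789 to 0.0851. Gzma and Gzmb themselves gave 0.490, 0.408 and 0.466.

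**Figure D4:**
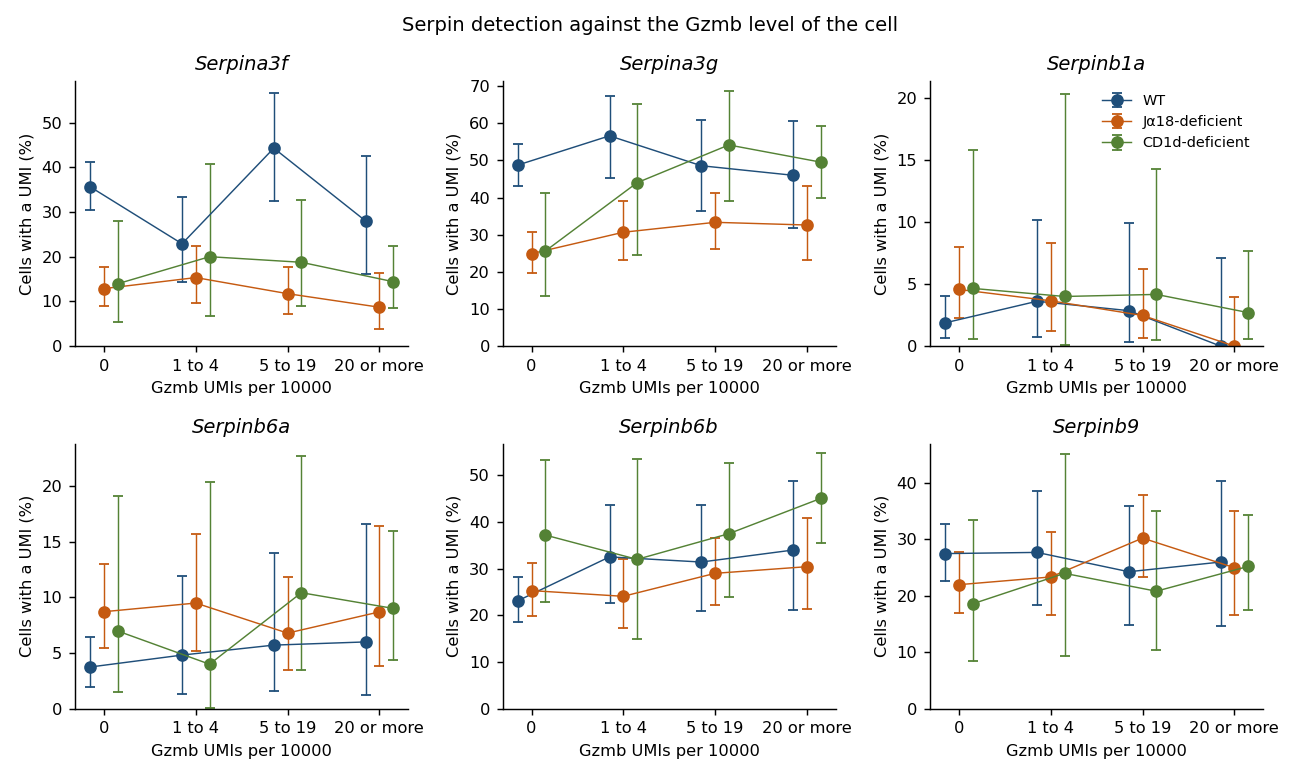
Percentage of thinned cells with a UMI of each Serpin gene (y axis) in cells with 0, 1 to 4, 5 to 19 and 20 or more Gzmb UMIs per 10000 (x axis), for the 3 pools, with 95% Clopper-Pearson intervals. Serpinb9 stays between 18.6% and 30.2% at every Gzmb level, and Serpina3g of CD1d-deficient cells is lowest, at 25.6%, in the 43 cells without Gzmb.

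To ask whether any member differed between cells with and without a Gzmb UMI, UMIs were summed over both kinds of cells in each pool. The 6 sums were tested with edgeR's quasi-likelihood test with pool as a term. The pools are of different genotypes, so a difference had to hold across genotypes. Cells with Gzmb numbered 203, 391 and 184, and cells without 320, 241 and 43. For a call, the adjusted p had to lie under 0.05 and the ln fold change beyond 0.25 in either direction, and none of the 6 members met this. The background was also near nil, with 0.00912% of 10965 genes called. That gene was Dapl1, named after its values were seen, which was lower in cells with Gzmb (0 against 63 UMIs in WT, 51 against 1478 in Jα18-deficient and 3 against 251 in CD1d-deficient cells). At an unadjusted p under 0.05 there were 492 genes, and DESeq2 called 67, none of them a member. In simulated counts for this gate, edgeR recovered 6% of 2-fold and 36% of 4-fold changes, and DESeq2 called 51 unchanged genes. The lack of a call thus does not show that a member was unchanged.

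The fold changes of the members were small or ill determined. On the log2 scale, cells with over cells without Gzmb gave 0.25 for Serpinb9 (SE 0.41; 95% interval -0.65 to 1.15), -0.16 for Serpinb6b (SE 0.29; -0.78 to 0.47), 0.22 for Serpina3g (SE 0.22; -0.27 to 0.71) and -0.01 for Serpina3f (SE 0.39; -0.87 to 0.84). For Serpinb6a it was 0.25 (SE 0.55; -0.97 to 1.46) and for Serpinb1a -0.08 (SE 1.18; -2.67 to 2.51). A change common to the 3 pools above 1.15 for Serpinb9, or above 0.71 for Serpina3g, is outside these intervals. They do not bound the change in a single pool, and CD1d-deficient cells gave 1.70 for Serpinb9 and 0.76 for Serpina3g. For Serpinb1a the interval reaches beyond 2 in both directions. The Benjamini-Hochberg adjusted p from edgeR was 0.996 or above for every member.

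In CPM, the pools gave opposite signs. For Serpinb9 the log2 ratio with over without Gzmb was 0.02 in WT, -0.63 in Jα18-deficient and 1.70 in CD1d-deficient cells. For Serpinb6b it was 0.40, 0.10 and -0.75, for Serpina3f -0.29, 1.02 and -0.53, and for Serpina3g -0.17, 0.30 and 0.76. Only Serpinb6a had one sign in all pools, at 0.19, 0.37 and 0.41.

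By Gzma, cells with a UMI numbered 159, 360 and 166 and cells without 364, 272 and 61. No member was called, and no gene of 10986 (0%) was called by edgeR, with 460 at an unadjusted p under 0.05 and 41 called by DESeq2, none a member. In simulated counts for this gate, edgeR recovered only 4% of 2-fold and 26% of 4-fold changes. The log2 fold changes were -0.28 for Serpinb6b (SE 0.23; 95% interval -0.78 to 0.21), 0.32 for Serpinb9 (SE 0.30; -0.35 to 0.99), 0.08 for Serpina3g (SE 0.23; -0.42 to 0.59), -0.05 for Serpina3f (SE 0.30; -0.71 to 0.61), 0.42 for Serpinb6a (SE 0.59; -0.88 to 1.73) and -1.04 for Serpinb1a (SE 0.95; -3.13 to 1.05). The Serpinb6b sign was negative although its share of cells with high Gzma was the larger one. The log2 ratio of Serpinb6b was below 0 in all 3 pools, at -0.07, -0.29 and -0.38, and Serpinb1a at -0.51, -2.33 and -0.18.

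**Figure D5:**
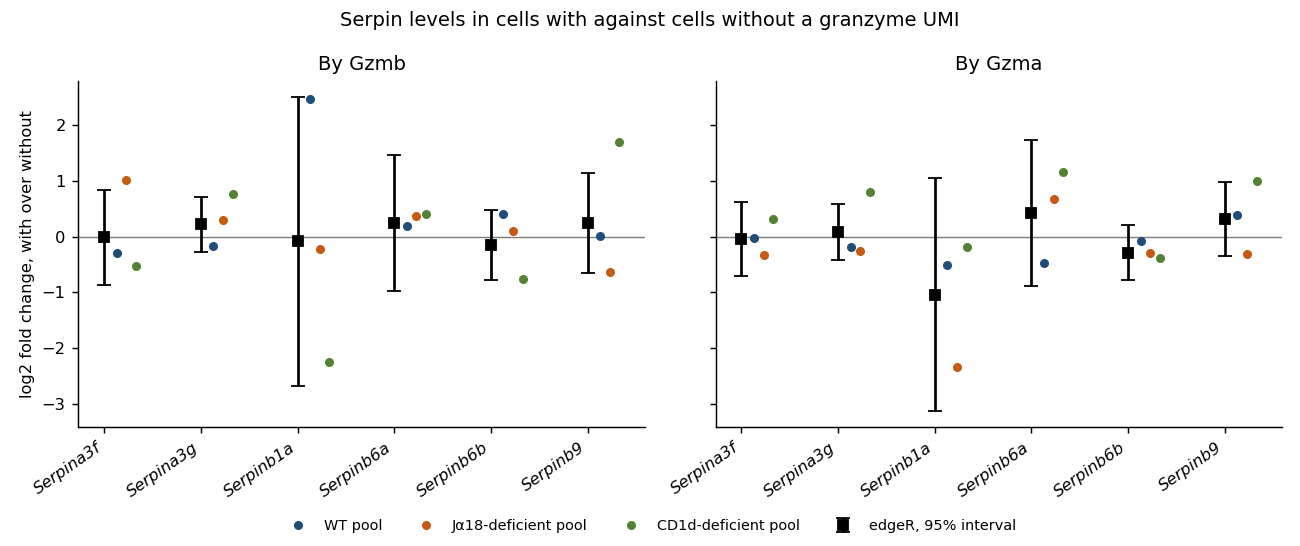
Log2 fold change of each Serpin gene in cells with over cells without a Gzmb UMI (left) or a Gzma UMI (right). Squares are edgeR's estimates over 3 pools, with 95% intervals computed from its F statistic. Coloured points are the log2 ratios of CPM in each pool. All 12 intervals hold 0, and the points of a member often lie on both sides of it, as for Serpinb9 by Gzmb (-0.63 to 1.70).

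Other genes of the protease system were not called either. Gzma was estimated higher in cells with Gzmb, without passing the test (log2 fold change 3.06, SE 0.67, edgeR adjusted p = 0.43), as was Gzmb in cells with Gzma (1.31, SE 0.21, edgeR adjusted p = 0.17). Of 4 granzyme and perforin genes tested by Gzmb, 11 cathepsins and 3 cystatins, none was called in either direction. Their median log2 fold changes were 1.43, 0.29 and 0.16, against 0.10 over the members and 0.06 over all genes tested. Cst7, the cystatin of cytotoxic cells, had 0.95 by Gzmb (SE 0.26, edgeR adjusted p = 0.82) and 0.73 by Gzma. By Gzma, the medians of the same lists were 0.27, 0.29 and 0.14, against 0.02 over the members and 0.03 over all genes tested.

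The gates moved with other measures. Cells with Gzmb were in the Cd8a gate in 17.7%, 25.6% and 50% of cases in WT, Jα18-deficient and CD1d-deficient mice, against 4.06%, 11.2% and 30.2% of cells without it. The median depth of cells with and without Gzmb was 50458 and 52236 UMIs in WT, 55833 and 63372 in Jα18-deficient and 36260 and 50170 in CD1d-deficient cells. Of cells with Gzma, 110 of 159, 210 of 360 and 61 of 166 had only 1 or 2 UMIs after thinning, and no cell type without Gzma was at hand to measure free RNA. With 3 UMIs needed for either gate, no member was called.

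Most cells carried few of the 6 serpins at a time. No member was detected in 18.7%, 34.0% and 23.3% of thinned WT, Jα18-deficient and CD1d-deficient cells, and 35.2%, 36.2% and 34.4% had 1. A pair of members was found in 31.5%, 21.4% and 27.3% of cells. No cell had all 6, and 1 cell, CD1d-deficient, had 5.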

How the data were processed

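Single NK1.1+CD3e+ cells of mouse liver were profiled by UMI-based RNA-seq. Per the labels and methods, the authors used Cutadapt 1.15 for trimming, TopHat2 2.0.12 for alignment against mm9 transcripts, UMIs for removing duplicates and HTSeq 0.10.0 for counting. The deposited matrix holds raw UMI counts of 24447 genes in 1735 cells. All 353 cells under the stated minimum of 10000 UMIs are in it and were kept, except in values on thinned cells, where counts were drawn at random down to 10000 UMIs (seed 1). Cells carry a genotype prefix only, so the 24 libraries and the mice could not be told apart, and cells were not used as replicates. Doublets were not called, since cells were picked by hand.

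A further gate of few cells, kept out of the remaining cells, is not reported here. CPM was computed from summed counts, with exact 95% Poisson intervals, and shares with exact Clopper-Pearson intervals. A pool pair was read past a log2 ratio of 1 among genes with at least 100 UMIs. Sums of raw counts over cells with and without a Gzmb or Gzma UMI per pool were tested with edgeR 4.0.16 (glmQLFit, glmQLFTest, TMM, filterByExpr, Benjamini-Hochberg over all genes) in R 4.3.3, without the gate gene. The SE of a log2 fold change was computed as its absolute value over the square root of edgeR's F statistic. The 95% intervals of fold changes came from these SEs and the t distribution. DESeq2 1.42.0, other normalization, filters, gates, seeds and left-out pools were alternatives. Both tests were checked on simulated counts with known changes. DESeq2 called 51 unchanged genes by Gzmb and 27 by Gzma, and edgeR 4 and 0. Of genes with a 2-fold change, edgeR recovered 6% by Gzmb and 4% by Gzma, and DESeq2 16% and 6%. Of genes with a 4-fold change, edgeR recovered 36% and 26%, and DESeq2 50% and 45%. Named genes were the members, lists of granzymes, neutrophil proteases, cathepsins and cystatins, other Serpin rows, and the 3 most alike genes per member. The members and lists were chosen with earlier results of these data known. Promoters came from RefSeq (GRCm38.p6) and were placed on NCBIM37 by exact match, positions and coding sequences from GENCODE vM1. Python 3.11.15, scipy 1.17.1 and matplotlib 3.10.9 were used.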

Additional observations from a re-analysis of the deposited data

Results flagged for a closer look

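In log2 ratios of CPM between cells with and without Gzmb, 5 of 6 members moved in opposite directions in different pools. Between cells with and without Gzma, 4 of 6 did. Shares of thinned cells differed from this. With Gzmb, the shares of Serpina3g and Serpinb6b were higher in all 3 pools, and with Gzma those of Serpina3g, Serpinb6a and Serpinb9. The shares of the other members moved in both directions. Intervals of the shares overlapped except for Serpina3g by Gzmb in CD1d-deficient cells. With 1 pool per genotype the difference between genotypes was not tested. By Gzmb, the log2 ratios of the highest and the lowest pool were 4.71 apart for Serpinb1a, 2.33 for Serpinb9, 1.55 for Serpina3f, 1.15 for Serpinb6b and 0.92 for Serpina3g. By Gzma, they were 1.64 apart for Serpinb6a, 1.31 for Serpinb9, 1.07 for Serpina3g and 0.63 for Serpina3f. Serpinb1a by Gzmb stood at 2.47 in WT and -2.24 in CD1d-deficient cells, while its share of thinned cells was 2.46% against 1.88% in WT and 3.26% against 4.65% in CD1d-deficient cells, and the 10 cells with most UMIs held 95.4% of its UMIs in WT.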

How the results depend on the processing

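No paired analysis was possible because the cells carry no library number; sums with and without a granzyme were matched only within a pool, by the pool term. No member was called by Gzmb or Gzma under any alternative. The number of genes called was unstable. For Gzmb, 1 gene was called, against 67 with DESeq2, 0 with upper-quartile factors, without the pool term or in cells without Cd8a or Klra, 29 with no filter, 17 with 3 UMIs for the gate, 7 at 100 CPM, 16 with thinned sums, 5 with another seed, and 21 to 29 when a pool was left out. For Gzma, 0 genes were called, against 41, 2 with upper-quartile factors, 14, 54, 30 and 4 (DESeq2, no filter, 3 UMIs, 100 CPM, thinned sums), and 0 to 38 when a pool was left out (9 without WT, 38 without CD1d-deficient cells). Fits with 2 pools rest on 4 sums. The causes were not tested.

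Signs of members changed in 14 of 72 alternatives by Gzmb and 11 of 72 by Gzma. By Gzmb, Serpina3f turned from -0.01 to 0.045 with upper-quartile factors or another seed, 0.19 at 100 CPM and 0.072 in cells without Cd8a or Klra. In those cells Serpina3g turned to -0.19 and Serpinb9 to -0.60. Serpinb6b turned to 0.020 with 3 UMIs and 0.48 with another seed. With a pool left out, the range was -0.50 to 0.31 for Serpina3f, -1.27 to 1.05 for Serpinb1a, -0.40 to 0.20 for Serpinb6b and -0.35 to 0.75 for Serpinb9. By Gzma, cells without Cd8a or Klra gave 0.61 for Serpina3f, 0.77 for Serpinb1a, -1.49 for Serpinb6a and -0.45 for Serpinb9. Serpina3g turned to -0.13 with thinned sums, Serpinb6a to -0.12 with another seed, and Serpinb6b to 0.14 with 3 UMIs, 0.54 at 100 CPM and 0.31 with another seed. With a pool left out, the range was -0.20 to 0.11 for Serpina3f and -0.25 to 0.28 for Serpina3g.

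Serpina3f was below WT in both mutant pools under each of the 4 alternatives that can change its level, at log2 ratios of -2.06 to -1.09 in CD1d-deficient and -2.75 to -2.20 in Jα18-deficient cells. Members past a log2 ratio of 1 numbered 1 in CD1d-deficient over WT cells and 2 with thinned counts. In Jα18-deficient over WT cells they numbered 2, and 3 with the mean over cells of CPM or TMM factors, where Serpina3g passed. In CD1d-deficient over Jα18-deficient cells they numbered 1, 3 with the mean over cells of CPM and 2 with thinned counts. Members lower in remaining than in Cd8a cells of every pool numbered 2 (Serpina3g and Serpinb9), 4 with thinned counts and 1 with 2 UMIs for a gate. Serpinb6a in Jα18-deficient cells turned to -0.73 with thinned counts.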
